A study of Homo sapiens with 16 samples.

Results

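The aminoacyl-tRNA synthetases are the enzymes that join each amino acid to its transfer RNA. Their transcripts were chosen by symbol from the deposited table of gene counts, and all 36 symbols sought were among its 20531 entries. Of these, 20 encode enzymes of the cytosol and 16 encode enzymes of the mitochondrion, whose symbols end in 2. The rule itself uses no measured value.

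LNCaP is an androgen-sensitive line derived from a human prostate cancer. The cells were transfected with a nonsense control siRNA (NS) or with a pool of siRNAs against SLIRP, and were then given vehicle (Veh) or 1 nM of the androgen dihydrotestosterone (DHT) in serum-free medium. With 4 RNA sequencing libraries each, the vehicle groups are called NS-Veh and SLIRP-Veh and the androgen groups NS-1nM DHT and SLIRP-1nM DHT, 16 libraries in all. Every group was transfected, so no library shows untreated cells, and the control is a single siRNA set against a pool. All libraries come from a single line, and the labels do not tie the replicate numbers to the separate experiments from which the replicates came. The question asked of the synthetases was how their transcripts differ with SLIRP siRNA, with DHT and with both.

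Most synthetases recognise 1 amino acid and load it onto the matching transfer RNAs, which carry it to the ribosome. EPRS is a fused enzyme that serves glutamate and proline. Nuclear genes encode both sets, and the mitochondrial enzymes are imported to charge the transfer RNAs made from mitochondrial DNA. GARS and KARS are exceptions, since each gene makes the cytosolic and the mitochondrial enzyme. Several cytosolic synthetases sit in a multi-synthetase complex held by the scaffold proteins AIMP1, AIMP2 and EEF1E1. Many cytosolic synthetase genes are known targets of ATF4, the transcription factor of the amino acid response. SLIRP is itself a protein that binds RNA in mitochondria and that also acts as a corepressor of nuclear receptors.

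Library totals ranged from 436353 to 1689708 counts, and the shallowest were NS-Veh replicates 1 and 2. SLIRP stood at 45.1 to 63.4 CPM (counts scaled to the same library total, with TMM factors) in the NS libraries and at 1.41 to 8.04 CPM in the SLIRP siRNA libraries. The luminal prostate markers KLK3, KLK2, TMPRSS2, FOLH1, KRT8 and KRT18 were detected, with summed levels of 2710 to 3150 CPM in NS and 2040 to 2510 CPM in SLIRP siRNA libraries. The basal, stromal, endothelial and immune markers KRT5, KRT14, TP63, COL1A2, PECAM1 and PTPRC together gave between 0 and 2 counts per library. The other markers on that list were low but detected, with 4 to 25 counts of COL1A1, 2 to 12 of VIM and 0 to 6 of CD68 per library. The whole list summed to 17.5 to 38 CPM in NS and 12.7 to 35.1 CPM in SLIRP siRNA libraries. The lower luminal sum moved with the SLIRP siRNA through FOLH1 and KRT8, which fell by 0.68 and 0.51 on the log2 scale over 16 libraries. KLK3, KLK2 and TMPRSS2 went the other way, at 0.42, 0.79 and 0.39 without passing over 16 libraries. They rose with SLIRP siRNA in DHT, where 3 of the 6 markers passed as higher, and 1 passed as higher in vehicle. From NS-Veh to SLIRP-Veh the mean went from 39.5 to 96.6 CPM for KLK3. It went from 2.41 to 6.13 CPM for KLK2 and from 98.3 to 130 CPM for TMPRSS2. The part of these shifts in the differences given here was not tested. In RNA taken from whole cultures, fewer cells with a transcript and less of it per cell cannot be told apart.

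Mean counts per library were 58.2 to 505 for the cytosolic members and 9.44 to 209 for the mitochondrial members. Levels of different genes were compared as CPM per kb of exon, taking the union of annotated exons. In the 8 NS libraries the median level was 24.8 CPM per kb over the 20 cytosolic members and 6.73 CPM per kb over the 16 mitochondrial members. NARS, which charges asparagine, had the highest level at 97.6 CPM per kb (range 86.3 to 104). It was followed by EPRS, the fused glutamate and proline enzyme, at 89.4 CPM per kb (range 84 to 99.2), and by TARS, the threonine enzyme, at 82.2 CPM per kb (range 74.5 to 92.6). The ranges of these neighbours overlapped. IARS2, for isoleucine, was the highest mitochondrial member at 49.2 CPM per kb (range 48.1 to 58.5). The lowest in the order were RARS2 at 1.83 CPM per kb, NARS2 at 1.9 CPM per kb and FARS2 at 1.93 CPM per kb, which overlapped in their ranges. The order depends on the length used. By the longest transcript FARS2 was lowest at 2.41 CPM per kb, with RARS2 at 4.93 and NARS2 at 5.79 CPM per kb.

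**Figure D1:**
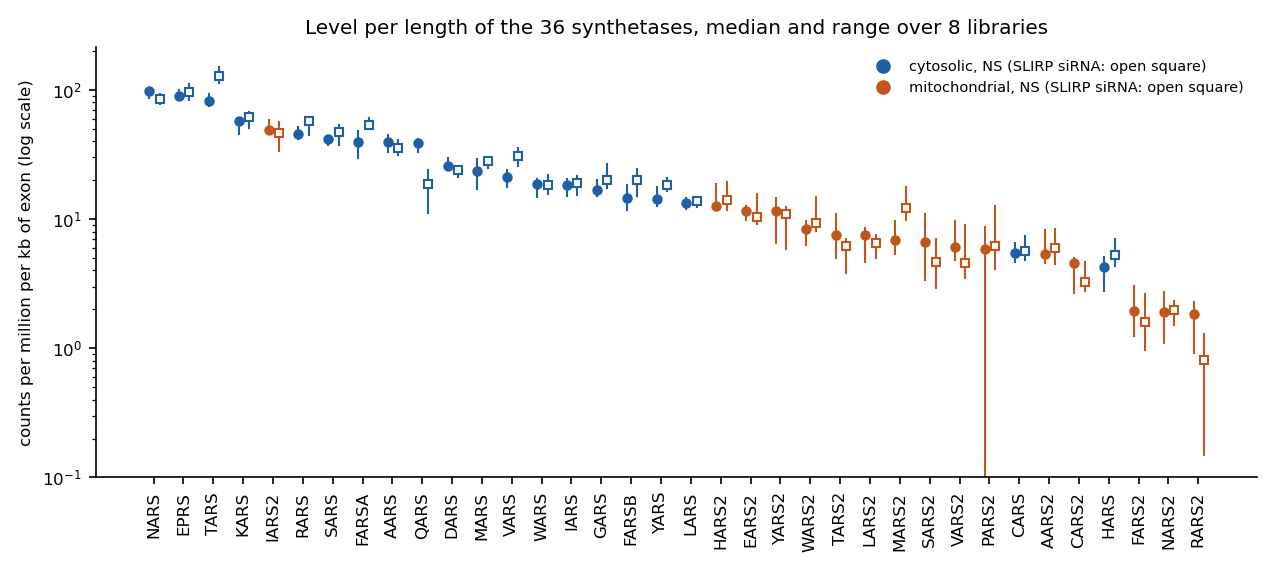
Level per length of the 36 synthetases in NS (filled circles) and SLIRP siRNA libraries (open squares), as CPM per kb of exon on a log axis, with the median and the range over 8 libraries and genes ordered by their NS median. IARS2 is the only mitochondrial gene among the cytosolic genes at the left. The lower end of the PARS2 range in NS, which is 0, is drawn at the foot of the axis.

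With SLIRP siRNA the synthetases moved in both directions, and mostly upwards in the cytosol. Over all 16 libraries, 8 cytosolic members rose (TARS, VARS, FARSB, FARSA, YARS, GARS, MARS and RARS) and 2 fell (QARS and NARS) at an FDR of 0.01 in edgeR, out of 20 tested. The counts depended on the libraries used, with 5 higher and 1 lower without replicate 1, 4 and 1 without replicate 4, and 7 and 1 without replicate 2 or 3. Calls over all genes were also fewer than the 1812 higher and 1769 lower with all replicates. They were 1458 and 1383 of 10263 without replicate 1, and 1568 and 1378 of 10261 without replicate 2. Without replicate 3 they were 1502 and 1242 of 10110, and without replicate 4 they were 1529 and 1381 of 9672. Limma on the authors' normalized table called 5 higher and 2 lower, and 1494 higher and 1686 lower of all 13147 genes. Among the 16 mitochondrial members MARS2 rose and RARS2 fell, and the other 14 did not pass. Of all 10167 genes tested, 17.8% rose and 17.4% fell. The share called differed with the mean count, and of the genes whose mean count reached 50, as all 20 cytosolic members do, 23% rose and 22.2% fell. Among genes with a mean count under 50, as 12 of the mitochondrial members have, 12.7% rose and 12.6% fell. The median log2 fold change was 0.15 over the cytosolic members and -0.11 over the mitochondrial members, against -0.015 over all genes tested. These medians describe the lists and were not tested.

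**Figure D2:**
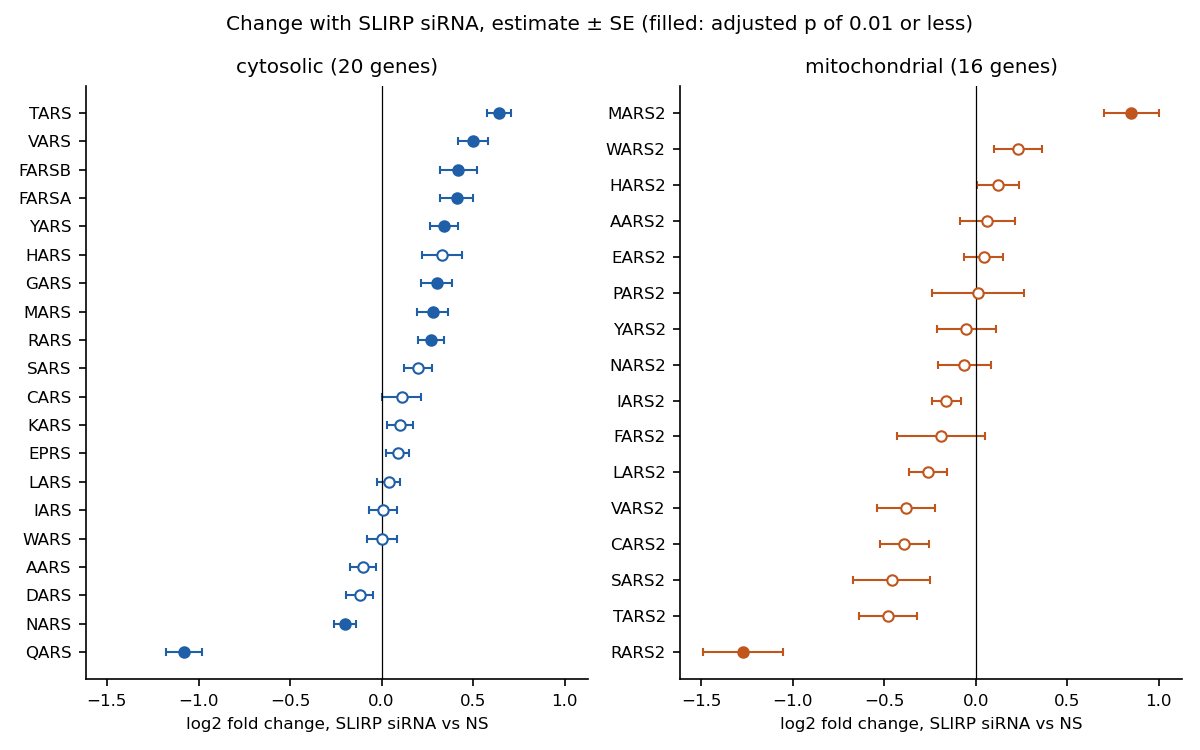
Log2 fold change with SLIRP siRNA against NS over 16 libraries, as the estimate with its standard error, for the 20 cytosolic genes (left) and the 16 mitochondrial genes (right). Filled points passed an adjusted p of 0.01. In the cytosolic panel 8 filled points lie above 0 and 2 below it, and in the mitochondrial panel the 2 filled points are MARS2 at 0.85 and RARS2 at -1.27.

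QARS, which loads glutamine in the cytosol, fell most among the cytosolic members. The gene lies on the minus strand at chr3:49133365-49142563 (hg19) and shares no annotated exon bases with another gene. Its NS-Veh libraries held 156, 181, 184 and 175 CPM and its NS-1nM DHT libraries 197, 178, 188 and 197 CPM. The SLIRP-Veh libraries held 82.9, 92.4, 52.5 and 88.5 CPM and the SLIRP-1nM DHT libraries 86.1, 70.5, 112 and 101 CPM. Every SLIRP siRNA library was thus below every NS library, as was so for 7.28% of all genes tested. The log2 fold change was -1.08 (SE 0.0967, adjusted p = 1.6e-10).

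NARS also fell, against the direction of most called cytosolic members, and by much less. The gene is on the minus strand at chr18:55267888-55289445 (hg19). Its level was 406, 399, 393 and 388 CPM in NS-Veh, and 425, 407, 399 and 353 CPM in NS-1nM DHT. It was 343, 360, 324 and 334 CPM in SLIRP-Veh, and 380, 357, 351 and 318 CPM in SLIRP-1nM DHT. The 2 arms overlapped only through the lowest NS-1nM DHT library and the highest SLIRP siRNA libraries. The log2 fold change was -0.20 (SE 0.0593, adjusted p = 0.00621), and leaving out any 1 replicate number raised the adjusted p to between 0.0211 and 0.0693.

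TARS, the cytosolic threonine enzyme, rose most among the cytosolic members and is encoded on the plus strand at chr5:33440802-33468196 (hg19). The NS-Veh libraries held 394, 355, 370 and 359 CPM and the NS-1nM DHT libraries 331, 335, 345 and 317 CPM. With SLIRP siRNA these became 512, 634, 584 and 539 CPM in vehicle and 557, 595, 487 and 486 CPM in DHT. All 8 SLIRP siRNA libraries lay above all 8 NS libraries, as was so for 7.89% of all genes tested. The log2 fold change was 0.64 (SE 0.0657, adjusted p = 2.22e-09).

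VARS charges valine and is known to associate with the elongation factor that delivers charged transfer RNAs, and its gene is on the minus strand at chr6:31745295-31763529 (hg19). It gave 104, 104, 139 and 124 CPM in NS-Veh, and 133, 112, 142 and 125 CPM in NS-1nM DHT. It gave 162, 160, 198 and 207 CPM in SLIRP-Veh, and 179, 185, 152 and 181 CPM in SLIRP-1nM DHT. The arms did not overlap, as was so in this direction for 7.89% of all genes tested. The log2 fold change was 0.50 (SE 0.0822, adjusted p = 7.48e-06). QARS, TARS and VARS were each called after any 1 replicate number was left out.

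FARSA and FARSB encode the alpha and beta subunits of the cytosolic phenylalanine enzyme, and the 2 transcripts rose by nearly the same amount. FARSA, at chr19:13033293-13044851 on the minus strand, held 74.1, 71.9, 92.5 and 86.7 CPM in NS-Veh and 101, 116, 114 and 116 CPM in NS-1nM DHT. With SLIRP siRNA it held 147, 138, 122 and 126 CPM in vehicle and 138, 127, 132 and 128 CPM in DHT. The arms did not overlap, as was so in this direction for 7.89% of all genes tested. The NS-Veh libraries were the lowest of all, and the log2 fold change was 0.41 (SE 0.0904, adjusted p = 0.000342).
FARSB, at chr2:223431618-223520811 on the minus strand, held 98.1, 78.8, 81.3 and 99.6 CPM in NS-Veh and 87, 125, 119 and 112 CPM in NS-1nM DHT. It held 139, 130, 117 and 102 CPM in SLIRP-Veh, and 151, 133, 146 and 166 CPM in SLIRP-1nM DHT. Here the arms overlapped, and the log2 fold change was 0.42 (SE 0.103, adjusted p = 0.00131). Without replicate 1 neither subunit passed, at an adjusted p of 0.0117 for FARSA and 0.0276 for FARSB.

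YARS, the tyrosine enzyme, is encoded on the minus strand at chr1:33240838-33283632 (hg19). Its libraries held 146, 148, 124 and 132 CPM in NS-Veh and 174, 140, 142 and 138 CPM in NS-1nM DHT. They held 162, 183, 179 and 177 CPM in SLIRP-Veh and 192, 172, 174 and 202 CPM in SLIRP-1nM DHT. The first NS-1nM DHT library reached into the SLIRP siRNA range while the other 7 NS libraries stayed below it. The log2 fold change was 0.34 (SE 0.0751, adjusted p = 0.000444), and without replicate 4 the adjusted p was 0.0126.

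**Figure D3:**
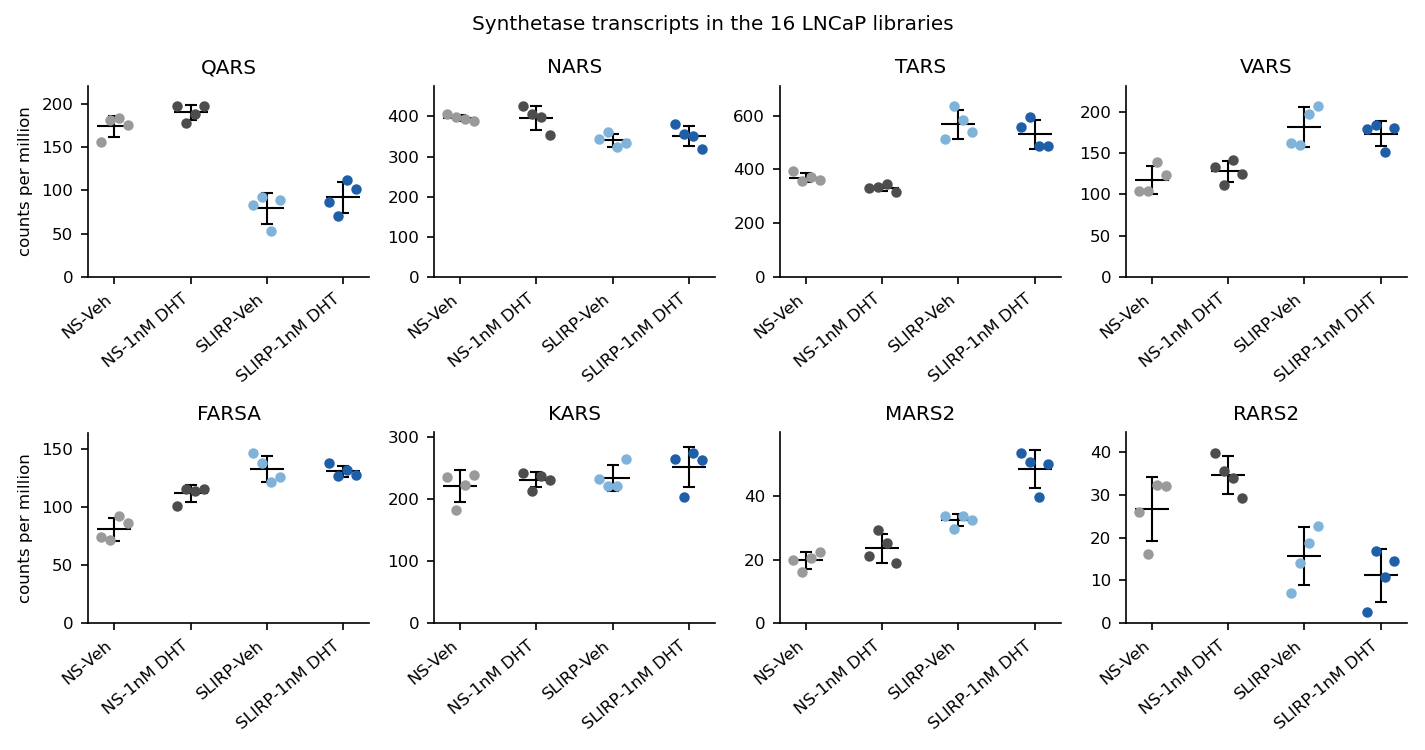
CPM in each of the 4 libraries of each group (points), with the group mean and SD (bar and whiskers), for 6 cytosolic and 2 mitochondrial synthetases, each on an axis from 0. QARS and RARS2 are lower in the SLIRP siRNA groups, TARS, VARS, FARSA and MARS2 are higher, and KARS overlaps throughout.

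The 2 genes that serve both compartments were called differently. GARS, for glycine (chr7:30620149-30673649, plus strand), gave 336, 350, 281 and 264 CPM in NS-Veh and 330, 300, 260 and 287 CPM in NS-1nM DHT. It gave 342, 418, 301 and 307 CPM in SLIRP-Veh, and 428, 464, 338 and 355 CPM in SLIRP-1nM DHT. GARS rose by 0.30 (SE 0.0861, adjusted p = 0.00503), although its arms overlapped and its call was lost without replicate 2 (adjusted p = 0.0191) or replicate 4 (adjusted p = 0.0115).
KARS, for lysine (chr16:75661372-75682541, minus strand), gave 236, 183, 224 and 239 CPM in NS-Veh and 243, 214, 238 and 232 CPM in NS-1nM DHT. It gave 233, 221, 222 and 266 CPM in SLIRP-Veh, and 265, 204, 275 and 264 CPM in SLIRP-1nM DHT. The KARS arms overlapped almost fully and its log2 fold change of 0.10 (SE 0.0728) did not pass (adjusted p = 0.262). Whether GARS and KARS changed unequally was not tested.

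MARS (methionine) and RARS (arginine) also rose, by 0.28 (SE 0.0851, adjusted p = 0.00717) and 0.27 (SE 0.0717, adjusted p = 0.00221). Both were chosen for mention after their values were seen. MARS had a median of 166 CPM in NS and 197 CPM in SLIRP siRNA libraries, and RARS had medians of 155 and 195 CPM. For both genes the arms overlapped, and each lost its call when either of 2 replicate numbers was left out, with adjusted p of 0.0441 and 0.0427 for MARS and 0.0232 and 0.0234 for RARS. The annotated exons of MARS overlap those of DDIT3 and ARHGAP9 on the opposite strand over 12.4% of their length, and whether the counting used strand is not given in the sources used here.

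Of the remaining 10 cytosolic members, HARS came closest to the threshold, with a log2 fold change of 0.33 (SE 0.108, adjusted p = 0.0133) and medians of 60.1 CPM in NS and 74 CPM in SLIRP siRNA libraries. HARS charges histidine. SARS, the serine enzyme, followed at 0.20 (SE 0.0753, adjusted p = 0.0325). CARS (cysteine), EPRS, LARS (leucine), AARS (alanine) and DARS (aspartate) gave log2 fold changes between -0.12 and 0.11. The smallest changes were those of WARS and IARS. WARS, the tryptophan enzyme, known to be induced by interferon, held 130, 118, 120 and 94.8 CPM in NS-Veh and 121, 124, 118 and 116 CPM in NS-1nM DHT. It held 140, 100, 125 and 117 CPM in SLIRP-Veh and 104, 109, 118 and 117 CPM in SLIRP-1nM DHT. The arms overlapped fully at a log2 fold change of 0.0042 (SE 0.0819).
IARS, the isoleucine enzyme, held 462, 336, 398 and 367 CPM in NS-Veh, and 417, 457, 444 and 403 CPM in NS-1nM DHT. It held 402, 344, 365 and 363 CPM in SLIRP-Veh, and 449, 446, 461 and 484 CPM in SLIRP-1nM DHT. IARS did not separate the siRNA arms, at 0.0098 (SE 0.0759), and its 4 SLIRP-1nM DHT libraries were all above its 4 SLIRP-Veh libraries.

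The cytosolic members differ in whether they belong to the multi-synthetase complex. Of the 8 in the complex (DARS, EPRS, IARS, KARS, LARS, MARS, QARS and RARS), 2 rose and 1 fell, with a median log2 fold change of 0.063. Of the 12 outside it, 6 rose and 1 fell, with a median of 0.31. Over all genes with a mean count of 50 or more, 23% rose and 22.2% fell, and the difference between these lists was not tested. By catalytic class, the 9 cytosolic enzymes of class I, whose active site is a Rossmann fold, had 4 members that rose and 1 that fell, and so did the 10 of class II, EPRS holding both kinds.

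The scaffolds of the complex all had positive estimates, and AIMP2 passed. The mean CPM of AIMP2 was 35.7 ± 5.6 in vehicle and 34 ± 4.18 in DHT with NS, against 55.4 ± 8.5 in vehicle and 47.8 ± 11.1 in DHT with SLIRP siRNA (SD, n = 4). Its log2 fold change was 0.55 (SE 0.125, adjusted p = 0.000497). EEF1E1 gave 0.42 (SE 0.155, adjusted p = 0.0268) and AIMP1 gave 0.24 (SE 0.113, adjusted p = 0.0798). AIMP1 rose by 0.53 (adjusted p = 0.00541) in the vehicle comparison and gave 0.018 (adjusted p = 0.934) in DHT, and the difference between these did not pass (-0.52, SE 0.205, adjusted p = 1).

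In the mitochondrial set, RARS2 and MARS2 carried the changes that passed, and they went opposite ways. Both have a mean count under 50 (23.5 and 31.7), and they were named after their values were seen. RARS2, the mitochondrial arginine enzyme, is encoded on the minus strand at chr6:88223177-88299746 (hg19). Its NS-Veh libraries held 26, 16.2, 32.4 and 32.1 CPM and its NS-1nM DHT libraries 39.8, 35.5, 34 and 29.2 CPM. Its SLIRP-Veh libraries held 7.1, 14.1, 18.8 and 22.8 CPM and its SLIRP-1nM DHT libraries 2.61, 16.9, 10.7 and 14.5 CPM. Only NS-Veh replicate 2, with 7 counts, fell inside the SLIRP siRNA range, and the lowest library, SLIRP-1nM DHT replicate 1, had 2 counts. The log2 fold change was -1.27 (SE 0.219, adjusted p = 1.74e-05).

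MARS2, the mitochondrial methionine enzyme, is encoded on the plus strand at chr2:198570093-198573119 (hg19). It held 20, 16.2, 20.5 and 22.5 CPM in NS-Veh, and 21, 29.3, 25.3 and 19 CPM in NS-1nM DHT. It held 33.7, 29.7, 33.6 and 32.4 CPM in SLIRP-Veh, and 53.5, 50.8, 39.8 and 49.9 CPM in SLIRP-1nM DHT. All 8 SLIRP siRNA libraries exceeded all 8 NS libraries, as was so for 7.89% of all genes tested. The highest NS library was close to the lowest SLIRP siRNA library. The log2 fold change was 0.85 (SE 0.152, adjusted p = 3.17e-05). RARS2 and MARS2 were each called after any 1 replicate number was left out.

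The other 14 mitochondrial members had log2 fold changes from -0.48 to 0.23, and 9 of them were negative. TARS2 (threonine) gave -0.48 (SE 0.158, adjusted p = 0.013), CARS2 (cysteine) gave -0.39 (SE 0.132, adjusted p = 0.0155) and LARS2 (leucine) gave -0.26 (SE 0.103, adjusted p = 0.0406), all short of the threshold. SARS2 (serine) gave -0.46 and VARS2 (valine) gave -0.38, with adjusted p of 0.07 and 0.0523. Annotated exons on the same strand are shared with another gene over 48.2% of the exon length of SARS2 and 63% of that of VARS2, so their counts are less certain. IARS2 gave -0.16, FARS2 (phenylalanine) -0.19, NARS2 (asparagine) -0.062, YARS2 (tyrosine) -0.052, PARS2 (proline) 0.013, AARS2 (alanine) 0.063 and WARS2 (tryptophan) 0.23, none past the threshold. The standard errors of the mitochondrial members had a median of 0.151, against 0.0756 for the cytosolic members. PARS2 had 0 counts in NS-Veh replicate 2.

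The mitochondrial members with the smallest changes and a mean count of 50 or more were EARS2 and HARS2. EARS2 loads glutamate and, by also charging the glutamine transfer RNA with glutamate, begins the indirect route to mitochondrial glutaminyl-tRNA. It held 78.1, 88.1, 76 and 88.3 CPM in NS-Veh, and 68.2, 86.4, 82.7 and 76.8 CPM in NS-1nM DHT. It held 73.4, 64.2, 71.3 and 93.8 CPM in SLIRP-Veh, and 71.7, 69.1, 100 and 109 CPM in SLIRP-1nM DHT. The arms overlapped fully at 0.043 (SE 0.106, adjusted p = 0.77), with the SLIRP-1nM DHT libraries the most spread.
HARS2, for histidine, held 70, 64.9, 46.2 and 47.4 CPM in NS-Veh, and 45.1, 45.5, 46.2 and 48.3 CPM in NS-1nM DHT. It held 52.1, 43.8, 71.3 and 51.7 CPM in SLIRP-Veh, and 49.6, 53.6, 58.3 and 52.3 CPM in SLIRP-1nM DHT. The arms overlapped at 0.12 (SE 0.115, adjusted p = 0.414). HARS2 (chr5:140071015-140078890, plus strand) and HARS (chr5:140052620-140071122, minus strand) lie head to head and share 108 exon bases, and their products are close relatives, so reads could be divided between them.

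Setting the cytosolic and mitochondrial enzymes of the same amino acid side by side gave 17 pairs, counting FARSA, FARSB and EPRS with each partner. The cytosolic estimate was the larger in 13 pairs, and in 10 pairs it was positive where the mitochondrial estimate was negative. Both genes were called in 2 pairs. For methionine both rose, MARS by 0.28 and MARS2 by 0.85. For arginine they went apart, RARS up by 0.27 and RARS2 down to -1.27. For threonine TARS rose by 0.64 while TARS2 gave -0.48 without passing, and for valine VARS rose by 0.50 while VARS2 gave -0.38 without passing. The differences within pairs were not tested.

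**Figure D4:**
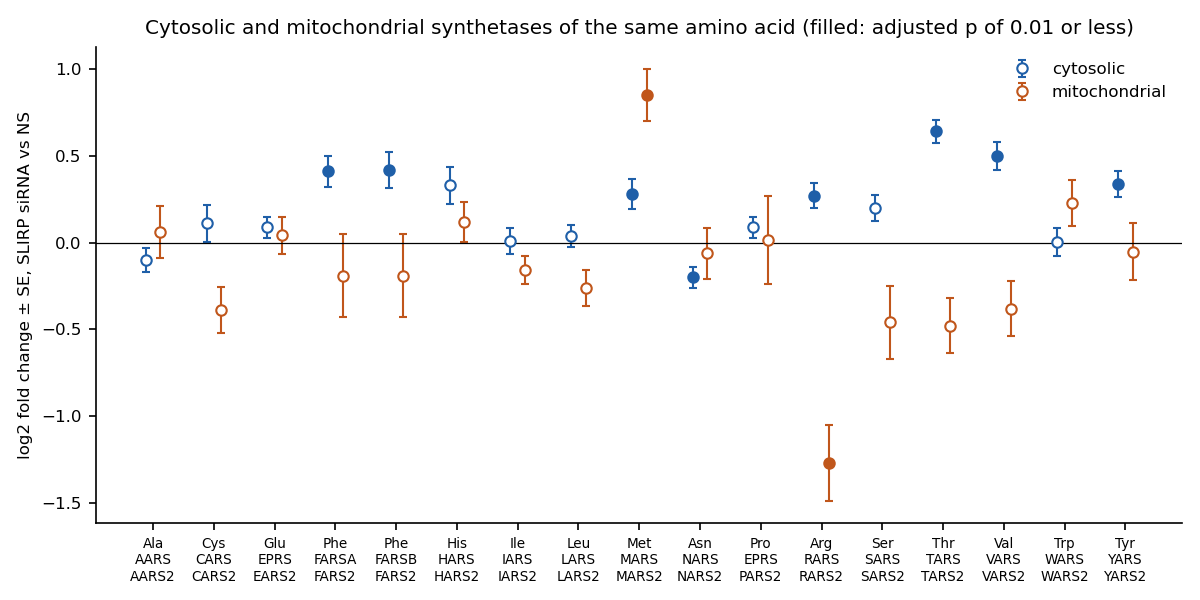
Log2 fold change with SLIRP siRNA against NS, with its standard error, for cytosolic (blue) and mitochondrial (orange) synthetases of the same amino acid, filled where the adjusted p was 0.01 or less. The arginine pair stands furthest apart, with RARS at 0.27 and RARS2 at -1.27, and methionine is the pair in which both genes rose.

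Summed over genes, the cytosolic transcripts were at 4120 to 4590 CPM in NS libraries and at 4460 to 5080 CPM in SLIRP siRNA libraries. The mitochondrial sums were 692 to 839 CPM in NS and 658 to 764 CPM in SLIRP siRNA libraries. In both sets the ranges overlapped.

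Without DHT and with DHT the SLIRP siRNA was compared with NS in separate libraries. In vehicle, 5 of 36 members rose (FARSA, FARSB, TARS, VARS and YARS), where 11.8% of all genes did, and QARS fell, where 9.95% of all genes did. The number that rose in vehicle is near the share over all genes. In DHT, 7 of 36 members rose (FARSB, GARS, MARS, TARS, VARS, YARS and MARS2), where 12.8% of all genes did, and QARS and RARS2 fell, where 11.6% of all genes did. QARS gave -1.13 (SE 0.129) in vehicle and -1.01 (SE 0.121) in DHT, and TARS gave 0.61 (SE 0.0838) and 0.67 (SE 0.0819). VARS gave 0.56 and 0.45, FARSB 0.45 and 0.43, and YARS 0.37 and 0.33. The 5 that rose in vehicle became 3 without replicate 2 or replicate 3, and the 7 in DHT became 4 without replicate 3 or replicate 4. Over all genes the 1256 of 10684 higher in vehicle became 1005 of 10743 without replicate 2 and 815 of 10634 without replicate 3. In DHT 1370 of 10684 became 1068 of 10634 without replicate 3 and 1194 of 10256 without replicate 4. FARSB and YARS were close to the threshold and each missed it in either comparison when some replicate numbers were left out, with adjusted p up to 0.0842 for FARSB and 0.11 for YARS. VARS in DHT missed it without replicate 2 (adjusted p = 0.0229) or replicate 4 (adjusted p = 0.0139), and MARS in DHT missed it without replicate 3 (adjusted p = 0.0147).

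Other members were called on 1 side only. FARSA gave 0.67 (SE 0.114, adjusted p = 1.33e-05) in vehicle and 0.23 (SE 0.105, adjusted p = 0.0934) in DHT. MARS gave 0.11 (SE 0.106, adjusted p = 0.469) in vehicle and 0.46 (SE 0.103, adjusted p = 0.000519) in DHT. GARS gave 0.18 (SE 0.109, adjusted p = 0.219) in vehicle and 0.42 (SE 0.104, adjusted p = 0.00164) in DHT. MARS2 gave 0.67 (SE 0.205, adjusted p = 0.0107) in vehicle and 1.02 (SE 0.177, adjusted p = 1.79e-05) in DHT, and RARS2 gave -0.96 (SE 0.297, adjusted p = 0.0113) and -1.58 (SE 0.296, adjusted p = 5.47e-05). Tested directly, the difference between the 2 comparisons was called for no member, nor for any gene (0% of 10684). Its unadjusted p was 0.00675 for FARSA (-0.45, SE 0.155) and 0.0221 for MARS (0.35, SE 0.148), both with an adjusted p of 1. These 2 were the members with an unadjusted p under 0.05, which 388 of all 10684 genes had. DESeq2 and limma also called 0 members for this difference. They called 0 of all genes, with 10684 and 13147 tested, so this count says nothing particular to the members.

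**Figure D5:**
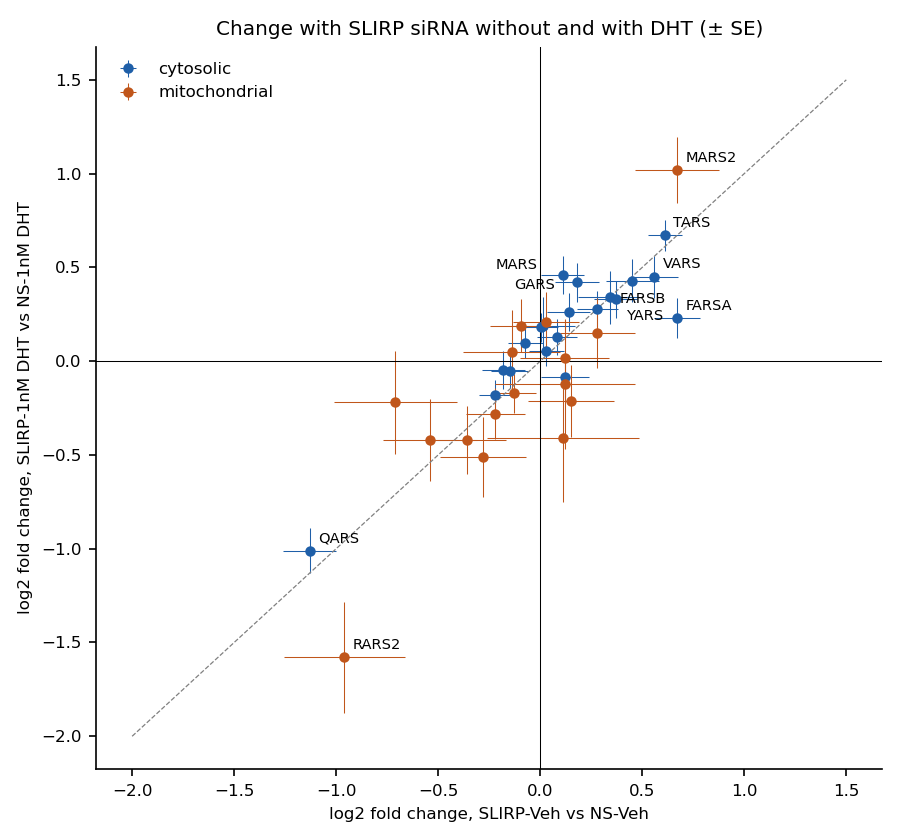
Log2 fold change with SLIRP siRNA in vehicle (horizontal) and in DHT (vertical), with standard errors, for the cytosolic (blue) and mitochondrial (orange) genes, where the dashed line marks equal values and the genes called in either comparison are named. FARSA lies furthest below the line among the named genes that rose, at 0.67 in vehicle and 0.23 in DHT.

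DHT by itself moved no member past the threshold in NS cells, where 1.31% of all genes passed in edgeR. There 4 members had an unadjusted p under 0.05, as did 1478 of all 10367 genes tested. Limma also called 0 of 36, and DESeq2 called 0 of the 27 members to which it gave an adjusted p, without AARS2, FARS2, MARS2, NARS2, PARS2, RARS2, SARS2, WARS2 and YARS2. Over all genes limma called 19 higher and 8 lower of 13147, and DESeq2 55 higher and 36 lower of 10367. FARSA came closest, at 0.40 (SE 0.114, adjusted p = 0.0522), followed by MARS at -0.29 (SE 0.106, adjusted p = 0.151), FARSB at 0.31 and TARS at -0.16. In SLIRP siRNA cells, where 1.17% of all genes passed, again 0 members did in edgeR. An unadjusted p under 0.05 was reached by 1663 of all 10684 genes and by 3 members. These were IARS at 0.31 (SE 0.0834, adjusted p = 0.0282), MARS2 at 0.56 (SE 0.173, adjusted p = 0.0689) and FARSB at 0.29 (SE 0.119, adjusted p = 0.202). DESeq2 called IARS there (0.33, adjusted p = 0.00819), among 26 members given an adjusted p, and limma called 0 members. Over all genes DESeq2 called 75 higher and 53 lower of 10684 there, and limma 21 higher and 41 lower of 13147.

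Mitochondria have no glutaminyl-tRNA synthetase of their own, and the amidotransferase of QRSL1, GATB and GATC completes the route that EARS2 begins. QRSL1 gave 0.23 (SE 0.118, adjusted p = 0.11) with SLIRP siRNA, GATB, listed under the older symbol PET112L, gave 0.12 (SE 0.17), and GATC was too low to be tested, at a mean count of 4.88. MTFMT, which formylates the initiator methionyl-tRNA that MARS2 charges, gave 0.15 (SE 0.159, adjusted p = 0.456). Of the 3 tested, 0 passed in edgeR, with 0 at an unadjusted p under 0.05, which 5401 of all 10167 genes tested had.

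Charged transfer RNAs are brought to the ribosome by elongation factors. EEF1A1, which does this in the cytosol, fell by 0.30 on the log2 scale (SE 0.0487, adjusted p = 5.63e-06), from means of 11200 ± 415 CPM in NS-Veh and 10500 ± 230 CPM in NS-1nM DHT to 9140 ± 667 CPM in SLIRP-Veh and 8420 ± 532 CPM in SLIRP-1nM DHT (SD, n = 4). Its many processed pseudogenes make its counts uncertain. EEF1A2, EEF1B2, EEF1D and EEF1G did not pass, at -0.15, 0.22, -0.0032 and 0.049. In mitochondria TSFM, which recharges the delivery factor TUFM, rose by 0.40 (SE 0.121, adjusted p = 0.00758), and TUFM gave 0.17 (SE 0.071, adjusted p = 0.0515).

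Among 5 genes of proofreading and release from transfer RNA, 4 were tested. DTD2, a deacylase that removes misloaded amino acids and is listed as C14orf126, fell by 0.67 (SE 0.117, adjusted p = 2.35e-05), and the other 3 did not pass. Of 7 genes that mature, modify or export transfer RNA, 6 were tested and 0 passed in edgeR, with log2 fold changes from -0.18 to 0.18. An unadjusted p under 0.05 was reached by 0 of these, and by 5401 of all 10167 genes tested.

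Of the 27 genes listed for the ATF4 pathway of the amino acid response, 25 were tested with SLIRP siRNA, of which 4 rose and 4 fell, with a median log2 fold change of -0.076. These counts are near the shares over all genes tested, 17.8% higher and 17.4% lower. The 3 largest changes past the threshold were a fall of PSAT1, which makes serine, to -2.18 (SE 0.111, adjusted p = 4.55e-16), a fall of SLC7A11, the cystine transporter, to -1.53 (SE 0.102, adjusted p = 3.28e-13), and a rise of EIF4EBP1, an inhibitor of translation initiation, by 0.93 (SE 0.11, adjusted p = 3.31e-08). PSAT1 had means of 309 ± 71.6 and 269 ± 26.4 CPM in the NS groups and of 57.4 ± 15.1 and 64.5 ± 5.8 CPM in the SLIRP siRNA groups (SD, n = 4), without overlap. Such a separation downwards was seen for 7.28% of all genes tested. ATF4 itself gave 0.20 (SE 0.064, adjusted p = 0.0126), and ASNS, asparagine synthetase and a classic target, rose by 0.32 (SE 0.0805, adjusted p = 0.0013). These 2 were named after their values were seen.

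Because ATF4 is known to bind composite C/EBP-ATF elements in synthetase promoters, the promoters of RefSeq (GRCh38.p14, 250 bases before to 50 bases after each start) were searched for the letters TTGCATCA on both strands. Promoters were found for 16 cytosolic and 14 mitochondrial members, and DARS, LARS, VARS, YARS, AARS2 and VARS2 were not matched. The letters were found for 6 of the 16 cytosolic members and for 0 of the 14 mitochondrial members. Over the whole promoter set they were in 0.866% of 35116 promoters. A looser form, TGATGNAA, which includes the first, was found for 7 of 16 cytosolic and 1 of 14 mitochondrial members, adding GARS and YARS2. It was in 3.62% of all promoters. Members were counted as genes but the whole set as single promoters, of which a gene may have several. These shares are therefore not like for like, and the difference between them was not tested. Of the genes listed for the amino acid response, 22 had a promoter. The first form was found for 2 of these 22 and the looser form for 5, so most of that list also lacked both in this window. The 6 stretches are shown with 11 bases on each side, in the direction of the gene, with the element in capitals, because their genes did not move alike.
TARS: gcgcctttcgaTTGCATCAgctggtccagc
MARS: gccggttccggTTGCATCAgcgagggattc
CARS: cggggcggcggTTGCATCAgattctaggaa
IARS: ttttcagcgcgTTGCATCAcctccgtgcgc
AARS: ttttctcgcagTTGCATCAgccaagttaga
NARS: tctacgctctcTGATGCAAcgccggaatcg
They lie at chr5:33440956-33440985 (plus strand) for TARS, chr12:57488053-57488082 (plus) for MARS, chr11:3057407-3057436 (minus) for CARS, chr9:92293692-92293721 (minus) for IARS, chr16:70289675-70289704 (minus) for AARS and chr18:57621804-57621833 (minus) for NARS, where it is reversed. Of these 6 genes TARS rose by 0.64 and MARS by 0.28, NARS fell by 0.20, and CARS at 0.11, IARS at 0.0098 and AARS at -0.10 did not pass. The promoters of QARS, FARSA, FARSB, RARS and the mitochondrial MARS2 and RARS2 held neither form in this window. The letters describe the sequence only, and no binding was measured here.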

How the data were processed

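The authors deposited estimated counts for 20531 entries and 16 libraries, with CASAVA, RSEM and hg19 named in the submitters' processing notes, without versions. The annotation and the strandedness are not given in the sources used here. A normalized table deposited by the authors, a score made from these counts by upper-quartile scaling, served 1 alternative.

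Counts were fitted with edgeR 4.0.16 in R 4.3.3 (TMM, filterByExpr, glmQLFTest, Benjamini-Hochberg over all genes tested, FDR of 0.01). The siRNAs were compared over 16 libraries without a covariate, the androgen response of NS cells in their 8 libraries alone, and the other contrasts in a 4-group model. CPM were scaled by TMM, and 3 counts are the floor of a library, for counting error only. Groups and replicate numbers come from the sample labels. Methods name 2 biological replicates in each of 2 experiments, so p-values measure the spread between these libraries. Libraries of a group differed by more than counting noise (chi-square per degree of freedom 1.21 to 2.37). In NS-Veh replicates 1 and 2 (1.24) and 3 and 4 (1.38) were the closest pairs, as in NS-1nM DHT (1.22 and 1.3). In SLIRP-Veh these pairs gave 1.95 and 1.21, and in SLIRP-1nM DHT 1.53 and 1.78. Whether they mark the 2 experiments was not tested, and libraries of 1 experiment may not be independent. With these pairs as a covariate 9 members rose and 3 fell with SLIRP siRNA over 16 libraries, and 1843 and 1815 of all 10167 genes. The fits were tested on simulated data.

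Members, gene lists and the promoter motif were chosen with earlier results of these data known. Values in every library were given for the 6 largest called changes per compartment with a mean count of at least 50, members called against their compartment's majority, the 2 smallest changes per compartment at that count, and GARS and KARS. RARS2 and MARS2 were added after their values were seen. Some luminal markers are not reported here. Exon lengths, overlaps and positions come from GENCODE lifted to hg19. Alternatives were DESeq2 1.42.0, limma 3.58.1 on log2(score + 1), other normalizations, filters, thresholds, covariates and subsets of replicates. Figures used matplotlib 3.10.9 in Python 3.11.15.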

Additional observations from a re-analysis of the deposited data

Results flagged for a closer look

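Within the groups of 4 libraries, 3 of 68 sets of values (17 members in 4 groups) had an end library far from the other 3, where chance gives about 1 in 20. FARSA in NS-1nM DHT replicate 1 was lowest at 101 CPM, with the nearest library at 114 CPM. YARS in NS-1nM DHT replicate 1 was highest at 174 CPM, with the nearest at 142 CPM. KARS in SLIRP-1nM DHT replicate 2 was lowest at 204 CPM, with the nearest at 264 CPM.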

How the results depend on the processing

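Against 8 cytosolic members that rose with SLIRP siRNA and 2 that fell, leaving out 1 replicate number at a time gave 4 to 7 and 1 to 1, with QARS the one that stayed. Over all genes these fits gave 1458 to 1568 higher and 1242 to 1383 lower, against 1812 and 1769 with all replicates. For the mitochondrial set the counts were then 1 to 1 higher and 1 to 2 lower, CARS2 joining without replicate 2, and the cytosolic median log2 fold change ran from 0.15 to 0.22. Limma on the authors' table called 5 cytosolic members higher, and 5 members in the DHT comparison. Of all 13147 genes it called 1494 higher over 16 libraries, and 792 higher and 1096 lower in DHT. Without a filter on low counts 1 cytosolic member fell, NARS missing at 0.0209, and 1711 of all 16905 genes fell. With at least 10 counts in every library MARS2 and RARS2 were not tested, 0 mitochondrial members rose and TARS2 fell. Of the 6934 genes tested with that filter, 1376 rose and 1403 fell. At an FDR of 0.05, 4 mitochondrial members fell, 10 members were called in vehicle and 1, IARS, for DHT in SLIRP siRNA cells, as DESeq2 also did (1). At that FDR 2387 of all 10167 genes fell over 16 libraries. In vehicle 1755 rose and 1646 fell of 10684, and for DHT in SLIRP siRNA cells 157 rose and 152 fell. The counts of members are near these shares. Chosen after seeing the data, only replicates 1 and 2 gave 3 higher and 1 lower cytosolic members and 0 higher mitochondrial ones, and only replicates 3 and 4 gave 4 and 1. Over all genes the first gave 1101 higher and 956 lower of 9417, and the second 1162 and 966 of 10360. The cause of these shifts was not tested, beyond the fewer libraries.

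Estimates near 0 changed sign and were not called. Leaving out 1 replicate number gave -0.04 to 0.078 for WARS, -0.028 to 0.038 for IARS and -0.065 to 0.16 for EARS2. Limma gave -0.047, -0.018 and -0.03 for these, and replicates 1 and 2 alone gave -0.08, -0.035 and -0.18, with -0.087 for HARS2. WARS gave -0.0051 with the replicate block.

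Same-numbered libraries correlated at 0.000111 to 0.201 in their deviations, all positive, with no comparison above 0.1 in all 4 pairs. The numbers are not taken to pair them. Different-numbered libraries were not correlated for comparison, and a shared effect of an experiment was not tested. With the replicate block 9 cytosolic members rose, HARS joining at an adjusted p of 0.00482, and 2 fell. Of all 10167 genes 2007 rose and 1948 fell with this block. With treatment as a covariate HARS joined likewise, and over both sets 10 members rose and 3 fell. Of all 10167 genes 1992 rose and 1983 fell with this covariate. With the longest transcript as length the NS medians were 46.7 CPM per kb in the cytosol and 10.2 CPM per kb in the mitochondrion. The order of genes then changed, with TARS at 131 CPM per kb above EPRS at 97.9 CPM per kb. IARS2 moved from rank 5 to rank 9 in NS. Mean counts of the mitochondrial members were lower, at 9.44 to 209 against 58.2 to 505 in the cytosol, and the part of depth in their calls was not tested.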
